A study of Mus musculus with 6 samples.

Results

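The genes described here are the numbered keratins, the small proline-rich (Sprr) genes, the late cornified envelope (Lce) genes and the single epidermal genes Lor, Ivl, Spink5, Dsg1a, Dsc1, Tgm1 and Tgm3. They were chosen by gene symbol and make up 92 of the 24421 genes counted: 48 numbered keratins, 16 Sprr genes, 21 Lce genes and 7 single genes. Flg, the filaggrin gene, was also named by the rule and was not analysed here. RNA-seq was performed on 6 libraries of mouse endothelial cells, 1 library per condition. Blood endothelial cells (BECs) of embryonic skin at E15.5 came from Tie2-Cre(+); Dot1l 2f/2f embryos (cKO) and from Tie2-Cre(-); Dot1l 2f/2f littermates (Cont), so that both carried the floxed Dot1l alleles, and RNA of 2 to 3 embryos was pooled per library. Tie2-Cre acts in endothelial cells and also in blood cells. The skin cells were those left after removal of F4/80+, CD45+ and Lyve1+ cells, with CD31 given as the positive marker. The cultured cells were embryonic yolk sac BECs of the line CRL-2581 and embryonic dermal lymphatic endothelial cells (LECs) of the line C57-6064L. They were transduced with lentivirus carrying dCas9-VP64 and guides to the Dot1l promoter (OE) or with empty lentivirus (Cont). GFP+ cells from 2 to 3 flasks made each library. The study asked what the loss or the forced expression of Dot1l, a histone H3K79 methyltransferase, does to the endothelial transcriptome.

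Keratins are the intermediate filament proteins of epithelial cells, and each filament pairs a type I with a type II keratin. In the epidermis, basal cells use Krt5 and Krt14, and cells that leave the basal layer switch to Krt1 and Krt10. The periderm, a flat layer that covers the embryonic epidermis, carries keratins that are otherwise known from simple or non-cornified epithelia. Involucrin (Ivl), loricrin (Lor), Sprr and Lce proteins are cross-linked by transglutaminases into the cornified envelope, the shell that replaces the membrane of the outermost epidermal cells. These genes are not part of the usual endothelial programme.

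Libraries held between 8863349 and 31032461 reads, the skin libraries being the smallest. All 10 endothelial markers, Pecam1 and Cdh5 among them, had reads in every library. Lyve1 had 9105 reads in the skin Cont library against 19959 reads in the library labelled cKO, although Lyve1+ cells had been removed, and Prox1, a defining gene of LECs, had 1304 and 883 reads there and none in any cultured library, the LEC libraries included. Dot1l had 762 reads in the skin Cont library against 944 in the library labelled cKO, with a log2 ratio of normalized counts of -0.07 (interval -0.21 to 0.07). Counts over the whole gene do not separate its floxed part, and because they did not set the libraries apart, each direction below is that of the library labelled cKO. The study reported RT-qPCR of Dot1l, with no replicate, as its own check of the cKO. Dot1l was higher in both OE libraries, with 1972 reads in Cont BECs against 4208 in OE-BECs (a log2 ratio of 1.48, from 1.40 to 1.55) and with 2490 reads in Cont LECs against 6720 in OE-LECs (log2 ratio 1.20, interval 1.13 to 1.27).

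Which members were read at all differed between skin and culture. Levels are given in CPM, the reads of a gene per 1000000 reads of its library. The members together reached 217 CPM in skin Cont BECs (95% exact interval 208 to 227), 416 CPM in cKO BECs (404 to 428), 497 CPM in cultured Cont BECs (486 to 507), 684 CPM in OE-BECs (670 to 697), 471 CPM in Cont LECs (462 to 479) and 652 CPM in OE-LECs (643 to 661). These intervals, like all below, cover counting error only and no spread between replicates. They treat reads as independent and may be too narrow, since reads copied by PCR and lacking molecular identifiers do not each stand for 1 molecule. Of the 92 members, 25 had at least 20 reads in some library, 22 of them in a skin library and 7 in a cultured one. Another 3 members peaked at 10 to 19 reads, 32 at 1 to 9 reads, and 32 had no read in any library. The skin libraries held a broad epidermal set, led by Krt5 with 16.5% of member reads in Cont and by Krt15 with 22.3% in the library labelled cKO. In the cultured libraries a single gene, Krt20, made up 89.7% and 87.9% of member reads in Cont BECs and OE-BECs, and 94.6% and 92.9% in Cont LECs and OE-LECs. Without Krt20 the cultured sums were 51.4, 82.8, 25.4 and 46.3 CPM in the same order. In bulk RNA, fewer cells of a type and less RNA per cell cannot be told apart.

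**Figure D1:**
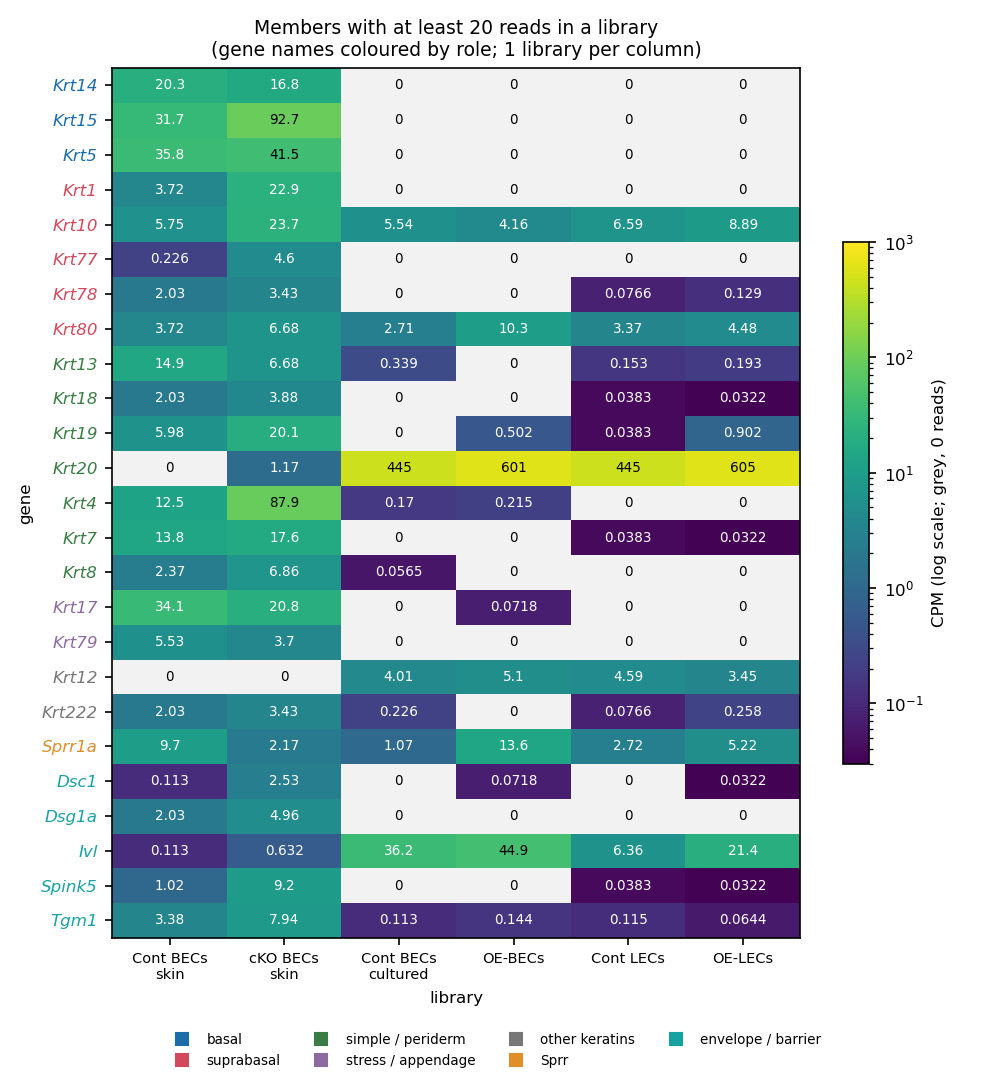
Level of the 25 members with at least 20 reads in a library, in CPM on a log colour scale, with 1 library per column and gene names coloured by role. Krt5, Krt14 and Krt15 have reads only in the skin columns among these 6 libraries, while Krt20 stands between 445 and 605 CPM in the cultured columns and at 0 and 1.17 CPM in skin.

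Keratins of the basal layer had 0 reads in all 4 cultured libraries, where 3 reads, the floor used here, correspond to between 0.0967 and 0.215 CPM. Krt1 and Krt77 were also at 0 there, and Krt8, Krt18 and Krt7, keratins of simple epithelia, had at most 1 read. Krt10, the type I partner of Krt1, nevertheless stood at 5.54, 4.16, 6.59 and 8.89 CPM in the cultured libraries (Cont BECs, OE-BECs, then Cont LECs, OE-LECs). The antisense gene Gm11940 overlaps Krt10 exons, and what the -S option of the counting tool does with strand was not given in the sources used here. Reads of type I keratins exceeded those of type II 149-fold in cultured Cont BECs, 52.6-fold in OE-BECs, 108-fold in LECs with empty lentivirus and 129-fold in OE-LECs. In skin the same ratio was 1.48 in Cont against 0.974 in the library labelled cKO.

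On a scale per length, RPKM (CPM per kilobase of exon), Krt17 at 22.0, Krt15 at 17.9, Krt5 at 16.3, Sprr1a at 12.0 and Krt14 at 11.6 led in skin Cont BECs. In the library labelled cKO the order was Krt15 at 52.4, Krt4 at 41.2, Krt5 at 18.9, Krt17 at 13.4, Krt10 at 11.2 and Krt19 at 10.8 RPKM. Krt20, a keratin of intestinal and urothelial surface cells and Merkel cells, stood at 231, 312, 231 and 314 RPKM in the 4 cultured libraries, which placed it 95th, 62nd, 155th and 88th among 23334 genes of known length.

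Most members lie in 3 clusters of the mm10 genome. Type I keratins are on chromosome 11 (25 members between 99232761 and 100269871), the type II keratins and the type I keratin Krt18 are on chromosome 15 (22 members between 101347444 and 102032027), and Ivl, Lor, the Sprr genes and the Lce genes share the epidermal differentiation complex on chromosome 3 (39 members between 92080271 and 93019060). Tgm1 is on chromosome 14 and Tgm3 on chromosome 2, apart from these clusters. The deepest readouts in culture came from Krt20 (chr11:99428403-99438150) and Ivl (chr3:92570902-92573735), each a gene on the minus strand.

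Chosen for promoter sequences were the 10 genes that were called with at least 50 reads or are Krt20. Krt1, Krt4, Krt19 and Krt80 had no entry among the promoter sequences used here, and Spink5 was left out. Promoter sequences are shown for the other 5. Each is the 250 bases before the RefSeq start site on GRCm38.p6, written 5′ to 3′ on the minus strand, on which all 5 genes lie: Sprr1a at chr3:92485882-92486131, Ivl at chr3:92573736-92573985, Krt10 at chr11:99389365-99389614, Krt77 at chr15:101869706-101869955 and Krt20 at chr11:99438154-99438403. Capitals mark matches on either strand to the TATA box letters TATAAA, the AP-1 letters TGANTCA and the TEAD letters CATTCC.
Sprr1a: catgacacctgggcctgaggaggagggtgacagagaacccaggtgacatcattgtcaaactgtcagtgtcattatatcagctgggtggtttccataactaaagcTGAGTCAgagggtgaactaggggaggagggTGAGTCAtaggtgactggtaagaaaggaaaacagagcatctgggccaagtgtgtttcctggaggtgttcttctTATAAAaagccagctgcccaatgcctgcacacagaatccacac
Ivl: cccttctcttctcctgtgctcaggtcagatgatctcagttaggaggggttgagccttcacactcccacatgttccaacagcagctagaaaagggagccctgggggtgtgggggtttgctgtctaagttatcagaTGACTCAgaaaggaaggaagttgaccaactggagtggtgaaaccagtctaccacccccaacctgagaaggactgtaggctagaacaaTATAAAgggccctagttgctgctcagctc
Krt10: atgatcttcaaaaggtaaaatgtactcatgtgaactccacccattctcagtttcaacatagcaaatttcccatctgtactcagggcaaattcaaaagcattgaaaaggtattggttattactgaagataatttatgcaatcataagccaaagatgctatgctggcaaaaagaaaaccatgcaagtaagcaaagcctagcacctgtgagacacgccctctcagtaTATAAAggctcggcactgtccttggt
Krt77: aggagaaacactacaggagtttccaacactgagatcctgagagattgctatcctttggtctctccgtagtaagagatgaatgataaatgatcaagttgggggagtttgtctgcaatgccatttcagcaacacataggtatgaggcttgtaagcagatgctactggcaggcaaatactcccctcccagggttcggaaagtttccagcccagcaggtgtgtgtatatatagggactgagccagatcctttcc
Krt20: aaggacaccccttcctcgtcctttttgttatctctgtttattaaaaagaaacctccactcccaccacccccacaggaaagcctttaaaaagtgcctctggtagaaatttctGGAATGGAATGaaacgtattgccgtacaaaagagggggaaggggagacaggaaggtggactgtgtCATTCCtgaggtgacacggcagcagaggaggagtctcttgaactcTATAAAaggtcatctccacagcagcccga

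TATAAA was found in 4 of the 5 sequences, beginning 26 to 43 bases before the start site, and not in Krt77. The AP-1 letters were found once in Ivl, 116 bases before the start, and at 2 places in Sprr1a, 146 and 116 bases before the start, the 2 cornified envelope precursors of this set. The TEAD letters were found only in Krt20 among these 5, at 139, 134 and 74 bases before the start, the first and second match sharing 1 base. Over all 32851 promoters of the same length, 12.4% held TATAAA, 6.75% held TGANTCA and 12.6% held CATTCC. Among the 74 promoters of 72 member genes the shares were 44.6%, 17.6% and 16.2%. Such a match is a description of letters, and binding was not measured here.

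In skin, keratins of the upper epidermal layers, Krt4 and the barrier genes Spink5 and Dsc1 were higher in the library labelled cKO than in Cont, the basal pair Krt5 and Krt14 stood near their Cont level, and Sprr1a was lower. By the rule of the study's methods, a call needed a normalized count (median of ratios) of at least 5 in the higher library and a fold of more than 3. Of the 29 members that reached the minimum, 10 (34.5%) were called higher and 3 (10.3%) were called lower, against 5.17% and 2.41% of all 15993 genes that reached it. With a minimum of 20 normalized counts, 7 of 23 members were called higher and 2 were called lower, against 2.73% and 1.12% of all genes. The median log2 ratio of the 27 members with at least 10 reads was 0.86, with 20 on the higher and 7 on the lower side, beside a median of 0.00 over all genes. No replicate exists for either genotype, so these are differences between 2 libraries, with no test against a spread.

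The 3 keratins of the basal layer did not move as 1 group. Krt5 had 317 reads in Cont against 460 in the library labelled cKO (35.8 and 41.5 CPM), a log2 ratio of 0.16 (interval -0.05 to 0.37). Krt14, its partner, had 180 and 186 reads (20.3 and 16.8 CPM), a log2 ratio of -0.33 (interval -0.63 to -0.03). The pair thus stood within 1.26-fold of Cont on either side. Krt15 (chr11:100131758-100135928), a basal keratin known from hair follicle stem cells, had 281 and 1027 reads (31.7 and 92.7 CPM), a log2 ratio of 1.49 (interval 1.30 to 1.69). At 2.81-fold it missed the call, and it carried most of the difference in the basal sum, which was 87.8 CPM in Cont and 151 CPM in the library labelled cKO. Krt14 shares 5.71% of its 75-base stretches with another gene, Krt16 being the near copy, so a small part of its reads may be split.

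All 5 suprabasal keratins with reads in skin were on the higher side, and 3 of them were called. Krt1 (chr15:101845426-101850794), the type II keratin of the spinous layer, had 33 reads in Cont against 254 in the library labelled cKO (3.72 and 22.9 CPM), 5.92-fold higher at a log2 ratio of 2.57 (interval 2.04 to 3.14). Krt10 (chr11:99385254-99389364), its partner, had 51 and 263 reads (5.75 and 23.7 CPM), 3.97-fold higher at a log2 ratio of 1.99 (interval 1.55 to 2.45). In the library labelled cKO the partners thus had nearly the same number of reads, but per length Krt1 stood at 5.19 and Krt10 at 11.2 RPKM. Krt77 (chr15:101858731-101869705), a further type II suprabasal keratin, had 2 and 51 reads (0.226 and 4.60 CPM), a ratio of 19.6 with a log2 interval of 2.37 to 7.38 that the 2 Cont reads leave wide. Krt80 (33 and 74 reads, log2 ratio 0.79, interval 0.18 to 1.43) and Krt78 (18 and 38 reads, log2 ratio 0.70, interval -0.14 to 1.60) were not called. Krt2 and Krt9 had no read in skin. Together the suprabasal keratins had 137 reads in Cont against 680 (61.3 CPM) in the library labelled cKO, 3.82-fold higher in normalized counts (log2 interval 1.67 to 2.21).

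Keratins of simple epithelia and periderm were mixed, with Krt4 and Krt13 going opposite ways. Krt4 (chr15:101918535-101924735), the type II keratin of non-cornified stratified epithelia, had 111 reads in Cont against 974 in the library labelled cKO (12.5 and 87.9 CPM), 6.75-fold higher at a log2 ratio of 2.76 (interval 2.47 to 3.05). Krt13, known as its type I partner, had 132 and 74 reads (14.9 and 6.68 CPM), 2.32-fold lower at a log2 ratio of -1.21 (interval -1.64 to -0.79). The ratio of Krt4 to Krt13 reads, which needs no scaling between libraries, was 0.841 in Cont against 13.2 in the library labelled cKO, 15.7 times higher (interval 10.9 to 22.5).

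Krt19 (chr11:100140810-100148665), a type I keratin of simple epithelia that also marks follicle cells, had 53 and 223 reads (5.98 and 20.1 CPM) and was called at 3.24-fold (log2 ratio 1.70, interval 1.26 to 2.16). Krt8 and Krt18, the partners of simple epithelia, had 21 and 76 reads (log2 ratio 1.48, interval 0.77 to 2.25) and 18 and 43 reads (log2 ratio 0.88, interval 0.05 to 1.76), and neither was called. Krt7 had 122 and 195 reads (log2 ratio 0.30, interval -0.04 to 0.64). Krt8 and Krt7 overlap antisense genes (Gm36026 and Gm671). Krt20 had no read in Cont against 13 in the library labelled cKO, at least 3.33-fold higher against the floor, and Krt23 had 7 and 3 reads, a call whose interval holds 0 (-4.18 to 0.53). For all 8 genes together the sum was 52.4 CPM in Cont and 144 CPM in the library labelled cKO, 2.66-fold higher (log2 interval 1.26 to 1.56).

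**Figure D2:**
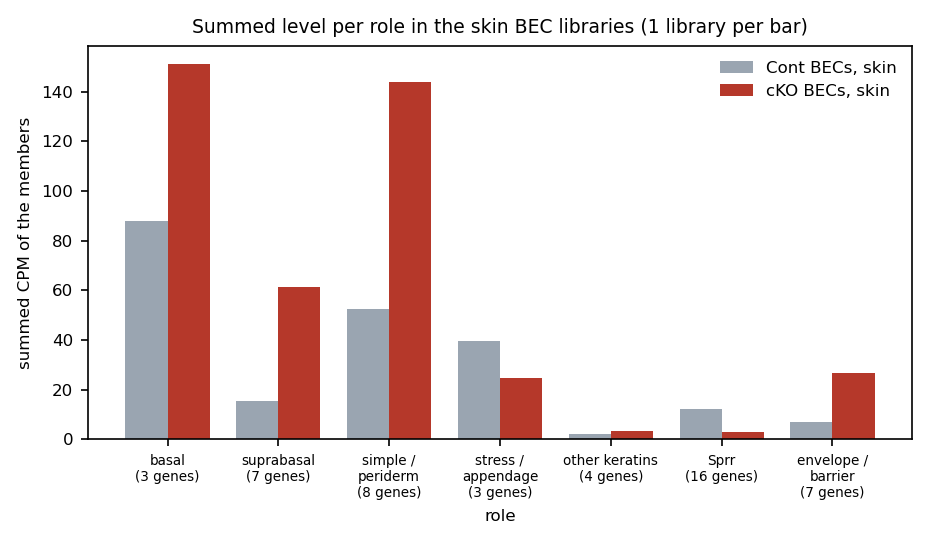
Summed CPM of the members of each role in the 2 skin libraries, 1 library per bar, so that no error bar is drawn. The hair, inner root sheath and Lce genes, each under 1 CPM in sum, are left out. The suprabasal bar of the library labelled cKO, at 61.3 CPM, stands more than 3 times above that of Cont, and the envelope and barrier bars go from 7.11 to 26.8 CPM, whereas the stress and appendage bars go from 39.6 to 24.6 CPM and the Sprr bars from 12.1 to 3.16 CPM.

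Keratins of stressed and appendage epithelium were on the lower side. Krt17 (chr11:100256217-100261029), which is present in embryonic epidermis, appendages and wounded skin, had 302 reads in Cont against 231 in the library labelled cKO (34.1 and 20.8 CPM), a log2 ratio of -0.76 (interval -1.02 to -0.51). Krt79, a keratin of the follicle opening and its gland ducts, had 49 and 41 reads (5.53 and 3.70 CPM), a log2 ratio of -0.64 (interval -1.27 to -0.01). Krt16 had at most 1 read in skin. Krt6a, a stress and periderm keratin that the rule leaves out because of its letter, went the other way with 69 and 202 reads (7.78 and 18.2 CPM), a log2 ratio of 1.17 (interval 0.77 to 1.59), and was not called.

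Members of the epidermal differentiation complex did not share a direction in skin. Sprr1a (chr3:92483952-92485895), a cross-linked envelope precursor that is also known from wounded epithelium, had 86 reads in Cont against 24 in the library labelled cKO (9.70 and 2.17 CPM), 4.66-fold lower at a log2 ratio of -2.22 (interval -2.94 to -1.55). Sprr3, a small proline-rich protein of non-cornified epithelia, had 18 and 4 reads, 5.85-fold lower (log2 interval -4.57 to -0.95). Sprr1b had 3 and 7 reads, and no other Sprr gene had a read in skin. The precursors Lor (1 and 8 reads) and Ivl (1 and 7 reads) were called higher at ratios of 6.16 and 5.39, but both log2 intervals, -0.28 to 8.09 and -0.53 to 7.92, hold 0. Lce genes, which are made late in cornification, had 4 reads in all in Cont and none in the library labelled cKO, and 15 of the 21 had no read in any of the 6 libraries.

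Of the other barrier genes, Spink5 and Dsc1 were called higher. Spink5, which encodes an inhibitor of the proteases that shed cornified cells, had 9 reads in Cont against 102 in the library labelled cKO (1.02 and 9.20 CPM), 8.72-fold higher at a log2 ratio of 3.12 (interval 2.14 to 4.29). Dsc1, a desmosomal cadherin of the upper layers, had 1 and 28 reads, a ratio of 21.5 with a log2 interval of 1.83 to 9.78. Dsg1a, a desmosomal cadherin of the same layers, had 18 and 55 reads (log2 ratio 1.23, interval 0.44 to 2.09), and Tgm1, the membrane-bound transglutaminase of the epidermis, had 30 and 88 reads (log2 ratio 1.17, interval 0.56 to 1.82). Neither reached 3-fold. Tgm3 had 3 and 9 reads (log2 interval -0.80 to 3.73). The 7 envelope and barrier genes summed to 7.11 CPM in Cont and 26.8 CPM in the library labelled cKO, 3.63-fold higher (log2 interval 1.46 to 2.28).

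**Figure D3:**
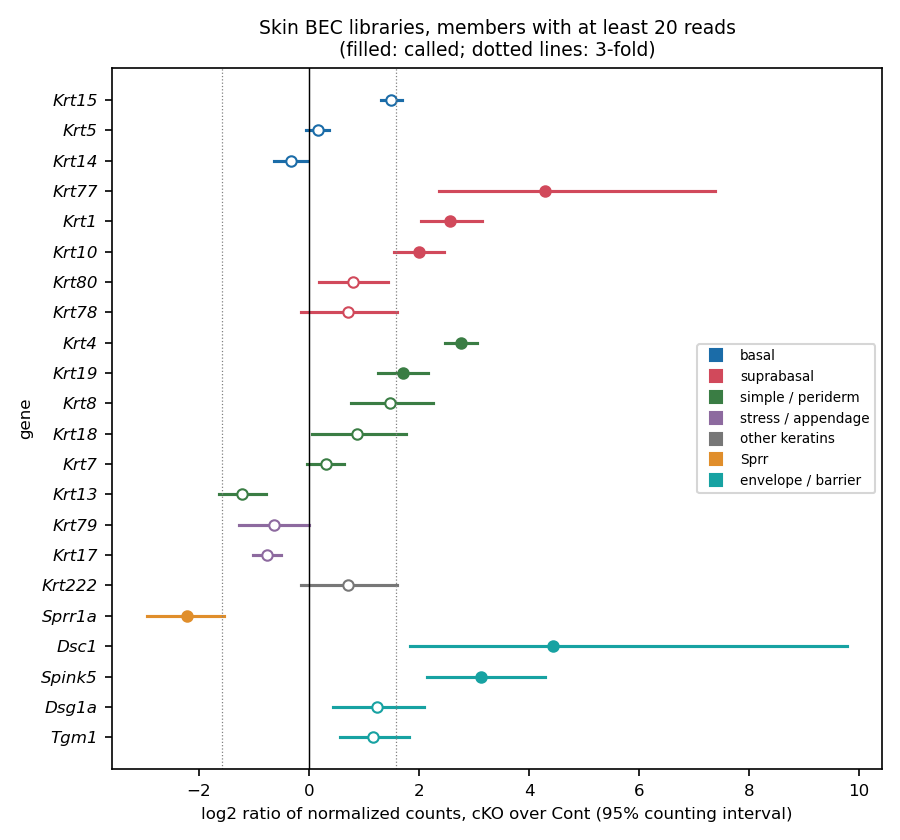
Log2 ratio of normalized counts, the library labelled cKO over Cont, for the 22 members with at least 20 reads in a skin library, coloured by role, with 95% counting intervals as lines, filled points for called genes and dotted lines at 3-fold. For 13 of the 22 the interval lies above 0, for 5 below, and for 4 it holds 0, and the widest intervals, of Krt77 and Dsc1, rest on 2 and 1 Cont reads.

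Keratins of the hair were near the floor in these libraries of sorted skin cells. The 13 hair shaft keratins had 4 reads in all in Cont against 5 in the library labelled cKO, and the 10 keratins of the inner root sheath and companion layer had 1 and 8 reads. Differences of that size could not be detected at this depth. Krt222, placed in no role here, had 18 and 38 reads (log2 ratio 0.70, interval -0.14 to 1.60).

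Ratios of reads within a library need no size factor. Reads of Krt1 and Krt10 per read of Krt5 and Krt14 were 0.169 in Cont against 0.800 in the library labelled cKO, 4.74 times higher (interval 3.64 to 6.21). Over the same basal pair, whose reads summed to 497 and 646, Krt4 was 6.75 times (5.35 to 8.56), Krt19 was 3.24 times (2.33 to 4.55), Krt15 was 2.81 times (2.35 to 3.37) and Krt6a was 2.25 times (1.66 to 3.08) its Cont ratio. Krt17 was at 0.588 (0.476 to 0.728), Krt13 at 0.431 (0.313 to 0.593) and Sprr1a at 0.215 (0.129 to 0.347) of the Cont ratio. Krt5 over Krt14 itself was 1.76 and 2.47.

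Genes of the same epidermal programme outside the rule were counted from lists chosen with earlier results of these data known. Of all genes that reached the minimum in skin, 5.17% were called higher and 2.41% lower. Of 20 other envelope and cornification genes, 13 reached the minimum, 6 were called higher and 0 lower, and their sum was 68.4 CPM in Cont and 184 CPM in the library labelled cKO. Among them Evpl, the envelope protein envoplakin, had 60 and 357 reads (4.58-fold), Scel, the envelope-associated sciellin, had 26 and 152 reads (4.50-fold), and Hrnr, the filaggrin relative hornerin, had 3 and 52 reads (a ratio of 13.3, log2 interval 2.11 to 6.06). All 15 desmosome and adhesion genes reached the minimum. Of them 1 was called higher (Pkp2, 8 and 38 reads) and 0 lower, with 10 on the higher and 5 on the lower side. Their sum, 1220 and 1050 CPM, was mostly Itga6 (881 and 626 CPM), an integrin that endothelial cells also carry. Of 15 epidermal transcription factors 14 reached the minimum. Among these 1 was called higher (Grhl3, 7 and 32 reads) and 0 lower, with 9 of the 14 that had at least 10 reads on the higher side. Their sum, 260 and 185 CPM, was mostly Klf4 (184 and 90.8 CPM). Of the 4 keratins with a letter in their symbol none was called.

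Markers of cell types that the sort could hold are given beside these values. The 12 keratinocyte markers outside the rule were all read in both skin libraries. All but Sfn also belong to the lists just given, so they are not a separate set of genes. They summed to 234 CPM in Cont and 323 CPM in the library labelled cKO, and stood 8 on the higher and 4 on the lower side, with 1 called (Krtdap). Trp63, the defining transcription factor of stratified epithelium, was at 18.7 CPM in both libraries (166 and 207 reads). The 10 endothelial markers summed to 6110 CPM in Cont and 3850 CPM in the library labelled cKO, 9 of 10 on the lower side and none called. The 4 LEC markers summed to 1490 and 2160 CPM, mostly through Lyve1 (1030 and 1800 CPM). Of these 4, 2 were on the higher side and 2, Prox1 and Flt4, on the lower side. The 6 fibroblast markers summed to 2510 and 1850 CPM, and the 5 mesothelial markers to 6.54 and 22.6 CPM, the last through Upk1b (14 and 181 reads). The part of these cell types in the differences above was not tested.

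In cultured BECs, forced expression of Dot1l went with higher Sprr1a and Krt80, while the abundant Krt20 and Ivl differed by less than 1.4-fold. The minimum for cultured cells was 3 normalized counts. Of the 22 members that reached it, 12 (54.5%) were called higher in OE-BECs and 3 (13.6%) were called lower, against 8.02% and 5.27% of all 14792 genes. Most of these calls were of few reads: 13 of the 15 had fewer than 20 reads, and for 9 of the 15 the interval holds 0. With a minimum of 20, 2 of 6 members were called higher and 0 lower, against 1.85% and 2.18% of all genes. Over the 8 members with at least 10 reads the median log2 ratio was 1.21, beside -0.01 over all genes, and it was 0.43 over the members with at least 50 reads.

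Sprr1a had 19 reads in Cont BECs against 190 in OE-BECs (1.07 and 13.6 CPM), 13.0-fold higher at a log2 ratio of 3.70 (interval 3.02 to 4.47). None of its 75-base stretches occurs in another member, and genes outside the rule were not searched. Krt80 (chr15:101347444-101370162), a type II keratin found in many epithelia, had 48 and 144 reads (2.71 and 10.3 CPM), 3.91-fold higher at a log2 ratio of 1.97 (interval 1.49 to 2.47). It overlaps the antisense gene Gm35853.

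Krt20 had 7874 reads in Cont BECs against 8370 in OE-BECs (445 and 601 CPM), a log2 ratio of 0.47 (interval 0.43 to 0.52). Involucrin had 640 and 625 reads (36.2 and 44.9 CPM), a log2 ratio of 0.35 (interval 0.19 to 0.51). The ratio of Ivl to Krt20 reads was 0.919 times its Cont value in OE-BECs (interval 0.818 to 1.03). Krt10 had 98 and 58 reads (log2 ratio -0.37, interval -0.87 to 0.11).

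Called with fewer than 20 reads were Sprr2h (1 and 11 reads, a ratio of 14.3 with a log2 interval of 1.06 to 9.27), Krt19 (0 and 7 reads, at least 3.04-fold), Krt83 (2 and 8 reads, log2 interval 0.06 to 5.66), and 7 genes with no read in Cont BECs and 3 to 5 in OE-BECs. Those 7 were Krt23, Krt27, Krt71, Krt82, Krt9, Sprr2f and Sprr2g. The 3 lower calls, Krt13, Tgm3 and Krt222, had 6, 4 and 4 reads in Cont BECs and none in OE-BECs. None of the 75-base stretches of Sprr2f, Sprr2g and Sprr2h occurs in another member. Sprr2a1 and Sprr2a2, which overlap on the same strand, share 94.3% and 94.7% of theirs with other members and had no read in any library. The Sprr sum was 1.47 CPM in Cont BECs and 15.1 CPM in OE-BECs, 10.5-fold higher (log2 interval 2.80 to 4.04), of which Sprr1a made the largest part.

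Epidermal genes outside the rule were sparse in cultured BECs. Of all genes that reached the minimum there, 8.02% were called higher and 5.27% lower. Of 20 envelope and cornification genes 8 reached the minimum, and the 20 summed to 4.01 and 10.9 CPM. Called higher were 3 (Ppl, 34 and 84 reads, 3.22-fold, and Rptn and Cst6, both with no read in Cont) and 0 lower. Of 15 epidermal transcription factors 10 reached the minimum and 5 were called higher, with Klf5 at 28 and 81 reads (3.77-fold) the best read of them. The 15 desmosome and adhesion genes, 9 of which reached the minimum, had 2 higher calls (Pkp1 and Cdh1, at most 3 reads each). Their sum was 499 and 384 CPM, mostly of Itga6 (418 and 305 CPM). Krt6a, Krt6b, Krt33a and Krt33b had no read in any cultured library.

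Keratinocyte markers summed to 65.9 CPM in Cont BECs and 64.8 CPM in OE-BECs, mostly of Itgb4 (58.5 and 53.8 CPM). Of the 12, Trp63, Pkp1 and Cdh1 were called higher with 5, 3 and 3 reads in OE-BECs, and Perp, Dsg3 and Epcam were at 0 in both. Endothelial markers summed to 8660 and 5550 CPM, all 10 on the lower side and Cldn5 called lower. LEC markers summed to 748 and 1160 CPM, mostly through Lyve1 (604 and 1060 CPM), while Flt4 was lower (144 and 98.3 CPM) and Prox1 had no read. Fibroblast markers summed to 2.83 and 5.67 CPM, and mesothelial markers to 2.77 and 67.8 CPM, the last through Msln (47 and 945 reads, 26.2-fold). The part of all these markers in the keratin and Sprr differences was not tested.

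In cultured LECs, Ivl and Krt19 were the called members with at least 20 reads, both higher in OE-LECs. Of the 16 members that reached the minimum of 3, 4 (25%) were called higher and 1 (6.25%) was called lower, against 2.77% and 2.09% of all 13883 genes. With a minimum of 20, 2 of 7 members were called higher and 0 lower, against 0.919% and 0.430% of all genes. The median log2 ratio of the 10 members with at least 10 reads was 0.46, beside 0.00 over all genes.

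Ivl, the scaffold precursor of the envelope, had 166 reads in Cont LECs against 665 in OE-LECs (6.36 and 21.4 CPM), 3.41-fold higher at a log2 ratio of 1.77 (interval 1.52 to 2.03). Its ratio to Krt20 reads was 2.48 times its Cont value (interval 2.09 to 2.96). Krt19 had 1 and 28 reads (0.0383 and 0.902 CPM), a ratio of 23.9 with a log2 interval of 1.98 to 9.93. Krt20 itself had 11631 and 18788 reads (445 and 605 CPM), a log2 ratio of 0.46 (interval 0.43 to 0.49). Krt20 thus stood at nearly the same CPM in both Cont libraries and in both OE libraries.

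The other members of this depth differed by less than 2-fold in LECs. Sprr1a had 71 reads in Cont LECs against 162 in OE-LECs (2.72 and 5.22 CPM), a log2 ratio of 0.96 (interval 0.55 to 1.38). Krt10 had 172 and 276 reads (log2 ratio 0.45, interval 0.17 to 0.73) and Krt80 had 88 and 139 reads (log2 ratio 0.43, interval 0.03 to 0.83). Called with fewer than 20 reads were Krt222 (2 and 8 reads) and Sprr2g (1 and 6 reads) on the higher side and Krt83 (14 and 2 reads, 8.21-fold lower, log2 interval -6.22 to -0.92) on the lower side, and the intervals of the first pair hold 0. The Sprr sum was 2.91 CPM in Cont LECs and 5.77 CPM in OE-LECs.

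**Figure D4:**
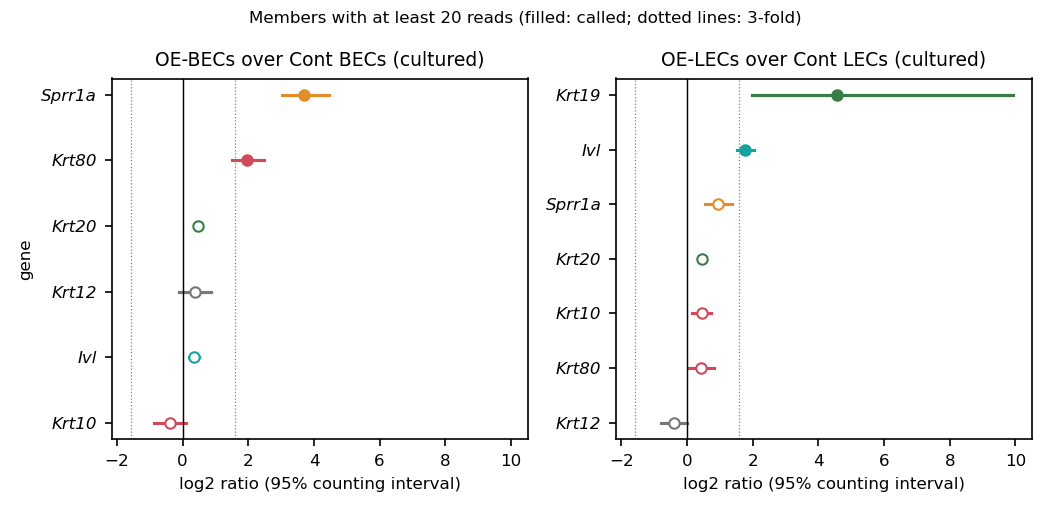
Log2 ratio of normalized counts, OE over Cont, for the members with at least 20 reads in a library of the pair, in cultured BECs (left, 6 genes) and LECs (right, 7 genes), with 95% counting intervals as lines, filled points for called genes and dotted lines at 3-fold. Sprr1a is at 3.70 in BECs and 0.96 in LECs, Ivl at 0.35 and 1.77, and Krt20 at 0.47 and 0.46.

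Krt12, known from the corneal epithelium, was read in the cultured libraries and not in skin. It had 71 reads in both cultured BEC libraries (4.01 and 5.10 CPM, log2 ratio 0.38, interval -0.11 to 0.88) and 120 and 107 reads in Cont LECs and OE-LECs (4.59 and 3.45 CPM, log2 ratio -0.40, interval -0.79 to -0.01). The gene (chr11:99415666-99422259) begins 6143 bases downstream of the end of Krt20 on the same strand. Its reads came to 0.902, 0.848, 1.03 and 0.570 per 100 reads of Krt20 in the cultured libraries (Cont BECs, OE-BECs, then Cont LECs, OE-LECs). Counts per gene do not show where these reads lie, and the antisense gene A830036E02Rik overlaps Krt12 exons.

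The cultured comparisons share no library, and whether their ratios differ was not tested, since each cell line has 1 library per condition. Side by side, Sprr1a was 13.0-fold higher in OE-BECs and 1.94-fold higher in OE-LECs, Krt80 was 3.91-fold and 1.35-fold higher, and Ivl was 1.27-fold and 3.41-fold higher. Krt19 and Sprr2g were called higher in both cell lines at few reads. Krt19 had 0 and 7 reads in BECs and 1 and 28 in LECs. Sprr2g had 0 and 3 reads in BECs, both at or under the floor. In LECs it had 1 and 6 reads, with a log2 interval of -0.69 to 7.88 that holds 0. Krt83 was called higher in OE-BECs and lower in OE-LECs, and Krt222 the other way round, at no more than 14 reads in any cultured library.

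Outside the rule, 8 of 20 envelope and cornification genes reached the minimum in LECs, and 0 were called in either direction. Of all genes that reached it, 2.77% were called higher and 2.09% lower. The 20 genes summed to 10.4 CPM in Cont LECs and 16.3 CPM in OE-LECs. No desmosome and adhesion gene was called, and their sum of 521 and 751 CPM was mostly Itga6 (454 and 631 CPM). Keratinocyte markers summed to 46.5 and 91.5 CPM, nearly all of it Itgb4 (43.8 and 89.8 CPM), and none was called, with Trp63, Dsp, Perp, Dsg3, Epcam and Krtdap at 0 in both libraries. Endothelial markers summed to 7300 and 6410 CPM, LEC markers to 2100 and 2090 CPM, fibroblast markers to 8.12 and 20.4 CPM, and mesothelial markers to 105 and 464 CPM, the last through Msln (2750 and 14395 reads, 4.46-fold). Their part in the differences of Ivl and Krt19 was not tested.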

How the data were processed

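The authors made libraries with ScriptSeq v2, trimmed reads with skewer 0.2.2, aligned them to mm10 with STAR 2.7.9a, counted reads per gene with VERSE 0.1.5 (option -S) and deposited the raw counts of 6 libraries. What that option does with strand, and how reads with several matches were handled, was not given in the sources used here. From the deposited counts, CPM was computed with library totals, and size factors of each pair by the median of ratios of DESeq2 1.42.0 in R 4.3.3. A call needed a normalized count of at least 5 (skin) or 3 (cultured cells) in the higher library and a fold above 3. Log2 ratios carry exact (Clopper-Pearson) 95% intervals on the reads, which cover counting error only. With 1 library per group no test was made. A library with 3 reads or fewer was at its floor: folds against 0 reads are lower bounds, and none was given with both libraries at the floor. Medians of log2 ratios used members with at least 10 reads in the pair and a pseudocount of 0.5. RPKM, positions and overlaps used GENCODE M21, in which 91 of the 92 members have a position. Members with at least 20 reads in a library of a comparison were named. Context genes were counted by list, with values for those called with at least 50 reads. The rule was relaxed for Trp63, Krt6a, Itga6, Itgb4, Klf4, calls under 20 reads and called context genes of few reads, chosen after their values were seen. Members, roles, lists and motifs were chosen with earlier results of these data known. Alternatives were other scalings (edgeR 4.0.16 TMM, all libraries, totals), minimums, folds, pseudocounts and an interval condition. Python 3.11.15, numpy 2.4.6, scipy 1.17.1, pandas 2.3.3 and matplotlib 3.10.9 were used, and the steps were tested on simulated data. Not reported here are the lower calls of the transcription factor list in cultured BECs and that list in LECs.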

Additional observations from a re-analysis of the deposited data

How the results depend on the processing

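The minimum count moved the numbers of called members most. Without a minimum, the members called higher were 16 in the library labelled cKO (10 as reported) and 14 in OE-LECs (4 as reported), and those called lower were 10 and 5 (3 and 1 as reported). With a minimum of 20, the members called higher were 2 in OE-BECs (12 as reported) and 2 in OE-LECs, and 0 were called lower in either (3 and 1 as reported). Asking that the interval exclude 0 left 6 higher and 0 lower calls in OE-BECs and 2 higher calls in OE-LECs, and a fold above 2 gave 2 lower calls in OE-LECs. The other 48 alternatives left counts of calls within 1.5 times the reported ones, and the median log2 ratios between 0.85 and 0.92 (cKO), 0.43 and 1.24 (OE-BECs) and 0.44 and 0.46 (OE-LECs). None of the 105 alternatives for the ratios of single genes changed a direction or a call. Another scaling shifted all log2 ratios by at most 0.06. With that shift, which total counts gave in skin, the intervals of Krt14 and Krt79 would hold 0. Their upper limits were -0.03 and -0.01 as reported. No paired analysis was possible because each group has 1 library and the labels give no replicate numbers, and no replicate could be left out. Depth limits the Lce, hair and Sprr2 genes, most of which lie at or under 3 reads.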
